A study of Homo sapiens with 8 samples.

Results

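The 40 genes described here encode the machinery that copies DNA and the regulators that start it. They were chosen by name, as a list of replication genes, and not by any measured value; all 40 had a transcript cluster (a group of probes summarised into 1 expression level) among the 17881 clusters of the array. Where a gene had several clusters, the brightest over the 8 arrays stood for it, which concerned only ORC6. The clusters of 4 genes carry further annotated symbols, so that MCM7 (with MIR106B, MIR25 and MIR93), POLA1 (with SCARNA23), PCNA (with PCNA-AS1) and FEN1 (with FADS2) cannot be told apart from those neighbours.

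RNA from cells labelled RS4;11, a leukemia line of early B-lineage origin, was hybridised to 8 Affymetrix exon arrays. The 4 groups of 2 arrays each were BTG1 shRNA with prednisolone, BTG1 shRNA with vehicle, control shRNA with prednisolone and control shRNA with vehicle. BTG1 is an antiproliferative protein, prednisolone is a synthetic glucocorticoid, and exposure lasted 8 h in every group. No label states whether replicate arrays hold RNA of separate cultures, or how many clones a transduced line contained. The p-values therefore reflect array-to-array spread alone, which may be technical, and 2 arrays a group set the precision.

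The cell label did not hold for every array. T-lineage markers (10 of 10 measured) averaged 8.70 to 8.97 on the log2 scale on the arrays labelled BTG1 shRNA, against 4.02 to 4.67 on the control shRNA arrays, and summed to 87.0 to 89.7 against 40.2 to 46.7. B-lineage markers (9 of 10 measured) averaged 4.19 to 4.48 on the arrays labelled BTG1 shRNA, against 8.27 to 9.05 on the control arrays, and summed to 37.7 to 40.3 against 74.5 to 81.4. A log2 array level has no true zero, so no marker can be called absent; CD79A, EBF1 and PAX5, which define the B lineage, lay at 4.06 to 4.92 on the arrays labelled BTG1 shRNA, at percentile 46.2 of an array or below. Under vehicle 9 of 10 T-lineage markers were called higher and 9 of 9 B-lineage markers lower with BTG1 shRNA. The exception was CD2, at 2.83 to 3.02 on the arrays labelled BTG1 shRNA and 2.86 to 3.16 on the control arrays. IGLL1 of the B list, though lower, stayed at 6.68 to 7.04 on the arrays labelled BTG1 shRNA, against 8.21 to 9.47 on the control arrays. Its cluster also carries IGLL3P. Myeloid markers averaged 4.02 to 4.50 and 4.17 to 4.95, and erythroid markers 3.96 to 4.56 and 4.04 to 4.74, on the arrays labelled BTG1 shRNA and the control arrays. The cluster of BTG1, the targeted gene, which also carries LINC01619, read 8.14 and 7.80 with BTG1 shRNA and prednisolone, 7.15 and 7.42 with BTG1 shRNA and vehicle, 10.51 and 10.70 with control shRNA and prednisolone, and 9.34 and 9.36 with control shRNA and vehicle. BTG1 was lower with BTG1 shRNA by -2.06 (SE 0.20, limma adjusted p = 0.000388) under vehicle. Under prednisolone the BTG1 difference was -2.64 (SE 0.20, limma adjusted p = 0.000107). In every comparison between the shRNAs, the shRNA and the lineage of the cells cannot be told apart. The groups are therefore called by their labels, and comparisons of prednisolone with vehicle were made within each of them.

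Replication starts in 2 steps. In G1 the origin recognition complex, with CDC6 and CDT1, loads the MCM2 to MCM7 helicase onto DNA, a step called licensing that geminin (GMNN) blocks once S phase begins. In S phase the kinase CDC7 and the CDKs activate the helicase through CDC45, GINS and MCM10, after which polymerases, the PCNA clamp and its RFC loader, the RPA single-strand binding complex, the flap nuclease FEN1 and the ligase LIG1 make the new strands. Many of these genes are transcribed at the G1/S boundary by E2F transcription factors, which cyclin E kinase activity helps to release from RB. Glucocorticoids can arrest lymphoid cells in G1, and the levels of these genes follow the share of cycling cells in many tissues. In bulk RNA, fewer cells in S phase and less RNA per cell cannot be told apart.

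Promoter sequences show what many of these genes share beyond their function. RefSeq promoters (GRCh38.p14, 250 bases before to 50 after the start) were matched for 35 of the 40 genes. An E2F site was searched as TTT, then 2 letters each C or G, then CGC, on both strands, with the words TTTCCCGC, TTTCGCGC, TTTGCCGC and TTTGGCGC. It was found in 19 of the 35 promoters (54.3%), against 1164 of all 35116 promoters of the same length (3.31%). The CCAAT box was in 19 of 35 (54.3%) against 34.6% of all promoters. The CHR element of G2/M genes, TTTGAA or TTCGAA (which reads the same on both strands), was in 1 of 35, MCM6 (2.86%), against 16.4% of all. The members' promoters had a median GC content of 66%, against 58.7% for all promoters, and no correction for composition was made. Both E2F transcription factor genes among the members, MCM6 and CDC45 are shown because the differences described further on concern them or, for MCM6, because its promoter holds the most matches; capitals mark the E2F words. The E2F1 promoter (chr20:33686336-33686635 on the minus strand) holds 2 matches and the E2F2 promoter (chr1:23531184-23531483 on the minus strand) holds 1. The MCM6 promoter (chr2:135876394-135876693 on the minus strand) holds 4 matches, which overlap in pairs on opposite strands. The CDC45 promoter (chr22:19479670-19479969 on the plus strand) holds 0 of these words and 4 CCAAT boxes. It does hold tttggcgg, which differs from TTTGGCGC in the last base. Only the exact words were searched, so a promoter without capitals may still hold a variant site.
E2F1: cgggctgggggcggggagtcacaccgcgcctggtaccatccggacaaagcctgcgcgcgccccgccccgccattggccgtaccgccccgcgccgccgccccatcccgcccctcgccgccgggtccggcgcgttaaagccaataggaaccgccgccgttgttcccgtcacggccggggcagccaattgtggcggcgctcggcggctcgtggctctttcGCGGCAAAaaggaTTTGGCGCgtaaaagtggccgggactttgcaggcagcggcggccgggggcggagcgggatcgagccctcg
E2F2: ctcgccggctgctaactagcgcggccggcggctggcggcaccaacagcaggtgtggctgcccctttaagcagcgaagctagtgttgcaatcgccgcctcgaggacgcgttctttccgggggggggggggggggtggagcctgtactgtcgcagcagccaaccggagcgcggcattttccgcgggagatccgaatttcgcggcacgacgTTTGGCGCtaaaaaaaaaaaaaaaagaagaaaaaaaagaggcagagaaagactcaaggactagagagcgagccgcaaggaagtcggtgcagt
MCM6: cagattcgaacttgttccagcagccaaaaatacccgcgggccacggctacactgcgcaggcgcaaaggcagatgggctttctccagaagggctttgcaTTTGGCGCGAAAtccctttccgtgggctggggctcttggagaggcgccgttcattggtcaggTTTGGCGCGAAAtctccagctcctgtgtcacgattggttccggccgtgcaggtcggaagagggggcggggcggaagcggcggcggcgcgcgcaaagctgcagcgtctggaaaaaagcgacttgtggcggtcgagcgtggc
CDC45: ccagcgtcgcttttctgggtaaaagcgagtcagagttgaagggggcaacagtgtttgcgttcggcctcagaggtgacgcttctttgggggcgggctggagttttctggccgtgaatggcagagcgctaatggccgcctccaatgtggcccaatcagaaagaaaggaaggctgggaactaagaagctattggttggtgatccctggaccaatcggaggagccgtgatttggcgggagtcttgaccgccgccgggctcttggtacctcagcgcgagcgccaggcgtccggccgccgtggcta

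The 4 G1/S regulators among the members are 2 E2F transcription factors and 2 cyclins. E2F1, an activator of the G1/S genes, read 8.39 and 8.37 with BTG1 shRNA and prednisolone and 8.42 and 8.46 with BTG1 shRNA and vehicle. Its levels were 7.77 and 7.52 on the control shRNA prednisolone arrays, against 8.54 and 8.38 on the control shRNA vehicle arrays. The control prednisolone arrays stood below all 6 others, which lay between 8.37 and 8.54. With control shRNA the difference between prednisolone and vehicle was -0.82 (SE 0.17, 95% interval -1.22 to -0.41), and it did not pass over all clusters (limma adjusted p = 0.0811). With BTG1 shRNA it was -0.06 (SE 0.17, interval -0.46 to 0.35). The difference between these effects was 0.76 (SE 0.25, interval 0.19 to 1.34, unadjusted p = 0.0163, limma adjusted p = 0.459) and did not pass either.

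E2F2, another activator E2F, was lower on the arrays labelled BTG1 shRNA under either treatment. Under prednisolone it read 8.08 and 7.81 with BTG1 shRNA, against 8.54 and 8.74 with control shRNA. Under vehicle it read 7.99 and 7.83 with BTG1 shRNA, against 8.69 and 8.89 with control shRNA. The groups did not overlap under either treatment. CCNE1, a cyclin E that drives CDK2, read 6.33 and 6.55 with BTG1 shRNA and prednisolone and 6.58 and 6.83 with BTG1 shRNA and vehicle. It read 6.31 and 6.10 with control shRNA and prednisolone, against 6.41 and 7.02 with control shRNA and vehicle. The prednisolone arrays lay below the vehicle arrays under either shRNA, by less than the test could call (-0.27, SE 0.25, with BTG1 shRNA and -0.51, SE 0.25, with control shRNA). CCNE2, its paralog, read 6.06 and 6.38 with BTG1 shRNA and prednisolone and 6.22 and 6.81 with BTG1 shRNA and vehicle. It read 6.89 and 7.51 with control shRNA and prednisolone, against 5.89 and 7.28 with control shRNA and vehicle. The control vehicle arrays differed by 1.39, more than any contrast of the gene.

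**Figure D1:**
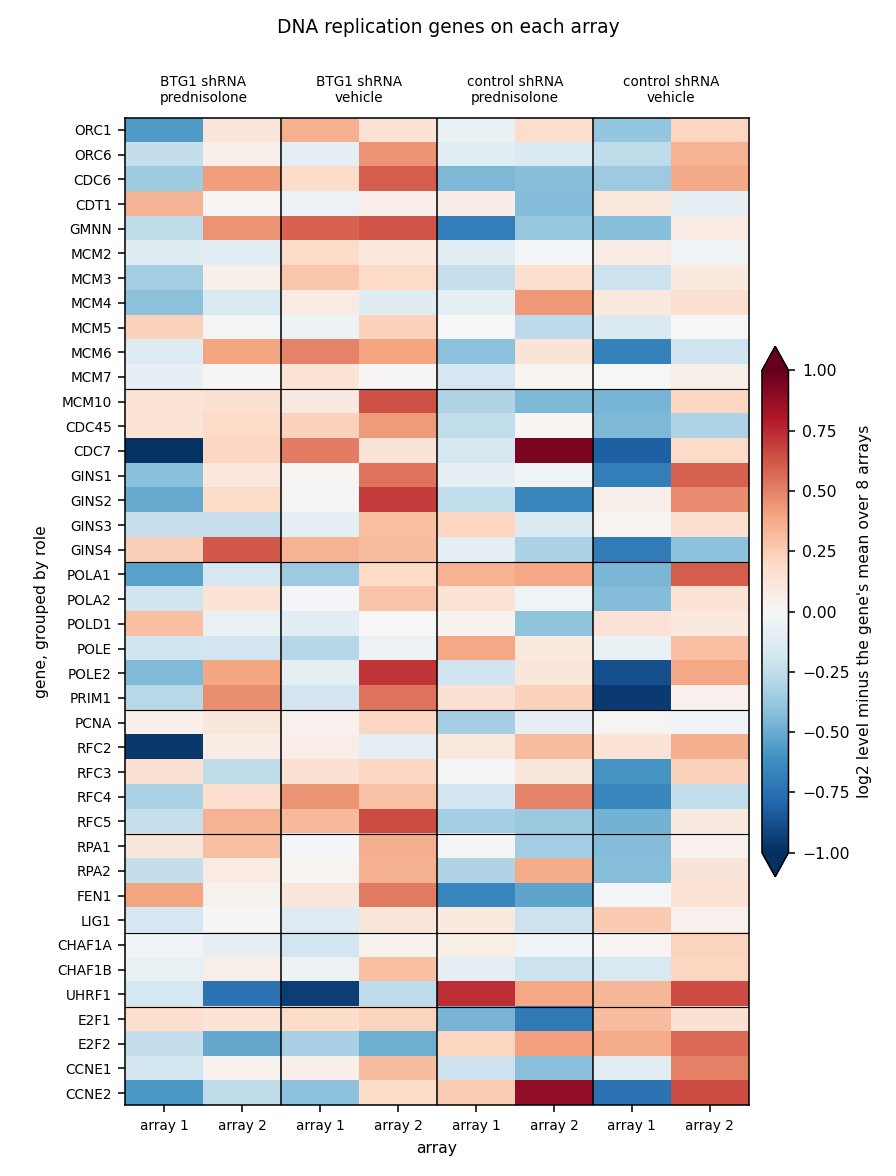
Level of each of the 40 replication genes on each of the 8 arrays, as the log2 level minus that gene's mean over the 8 arrays, with array columns grouped by shRNA and treatment and gene rows by role; the colour scale ends at 1 in either direction. No group forms a solid block of high or low genes; UHRF1 and E2F2 are low on the arrays labelled BTG1 shRNA, E2F1 and FEN1 are low on the control prednisolone arrays, and array 1 is often lower than array 2 of its group.

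On the arrays labelled BTG1 shRNA, 0 of the 40 replication genes passed the test for prednisolone against vehicle (limma, Benjamini-Hochberg adjusted p below 0.05 over all clusters), where 0% of all clusters passed. Without adjustment, 0 members had a p below 0.05, against 186 of all 17881 clusters. No member differed by over 2-fold, the selection named in the series' design, against 0.213% of all clusters. The differences were small and mostly negative, with 32 members below 0 and 8 above. Their median was -0.24 and their range -0.71 to 0.18, where the median over all clusters was 0.03. Over the 7243 clusters with a mean level of at least 6, which include all 40 members, the median was -0.07. In 12 members the prednisolone arrays lay wholly below the vehicle arrays, against 10.5% of all clusters, and in 0 wholly above, against 18.0% of all clusters. The 12 were GMNN, ORC1, RFC4, MCM2, MCM3, MCM4, MCM6, MCM7, GINS3, CDC45, CCNE1 and E2F1. The members' median was -0.14 after quantile normalization and -0.29 after centring. It also depended on single arrays: it was -0.11 without the first prednisolone array and -0.04 without the second vehicle array, and -0.33 and -0.31 without the other array of each group.

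On the control shRNA arrays, 0 of the 40 replication genes passed for prednisolone against vehicle either, where 1.52% of all clusters did. E2F1 and FEN1 had an unadjusted p below 0.05, 2 of 40, against 2526 of all 17881 clusters. No member differed by over 2-fold, against 5.26% of all clusters. There were 22 members below 0 and 18 above, with a median of -0.04 and a range of -0.82 to 0.70, where the median over all clusters was -0.16. The sign of the members' median turned with scaling: it was -0.17 after quantile normalization and 0.08 after each array was centred on its median. The median over all clusters moved to -0.05 and -0.04. Among clusters with a mean level of at least 6, all 40 members included, the median without further scaling was 0.06. In 7 members the prednisolone arrays lay wholly below the vehicle arrays (E2F1, GINS2, FEN1, CCNE1, CDC6, POLD1 and PCNA), against 26.4% of all clusters. In 4 they lay wholly above (CDC45, GINS4, RFC4 and PRIM1), against 15.3% of all clusters. Without the first control vehicle array the median was -0.16, and without the second it was 0.10.

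**Figure D2:**
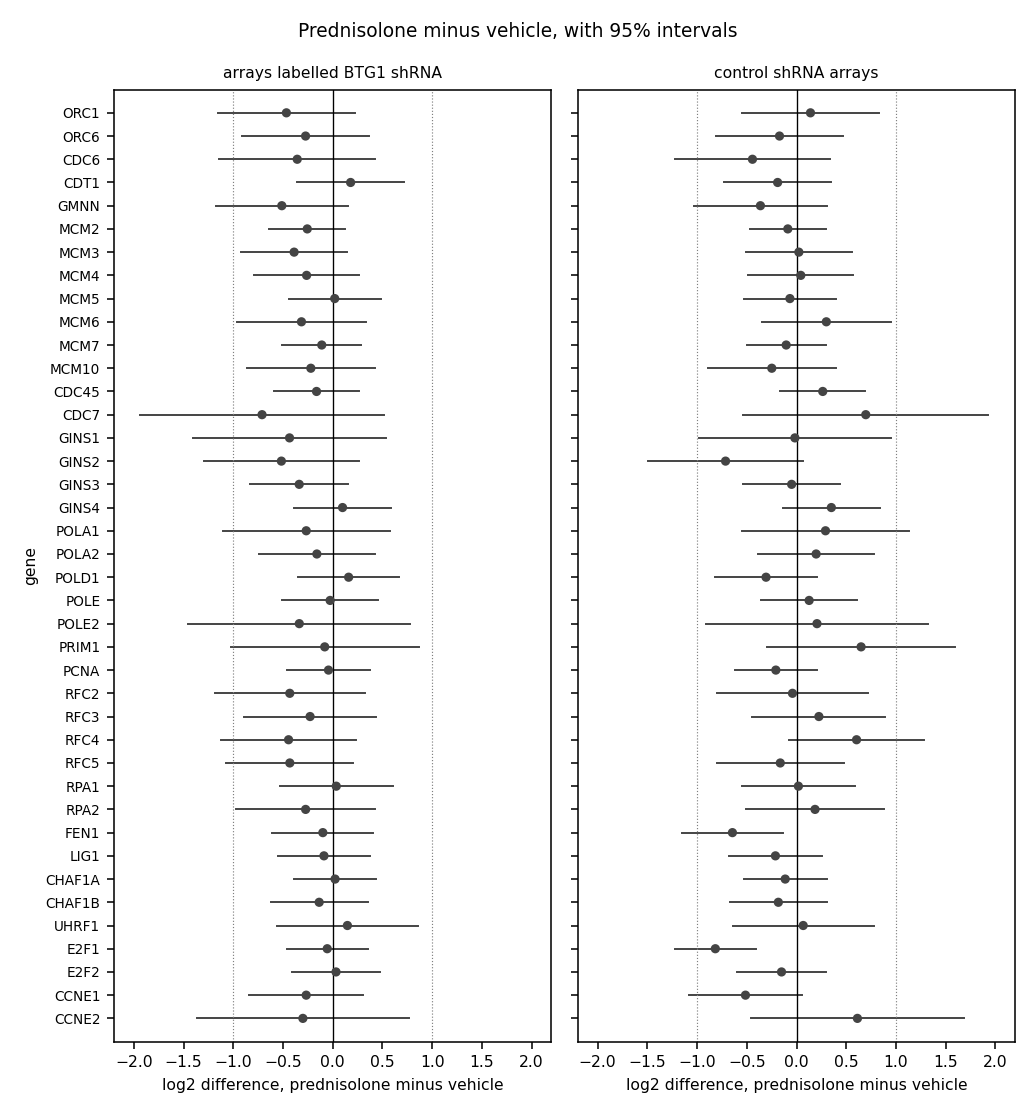
Difference between prednisolone and vehicle in the log2 level of each replication gene, with its 95% interval from the limma fit, on the arrays labelled BTG1 shRNA (left) and the control shRNA arrays (right); dotted lines mark a 2-fold difference. No gene passed the test; with BTG1 shRNA 32 of 40 points lie left of 0, and with control shRNA E2F1 lies farthest left at -0.82.

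Averaged over both shRNAs, 0 of 40 members passed, where 0.347% of all clusters did, and 0 differed by over 2-fold, against 0.537% of all clusters. The median was -0.09 and the range -0.61 to 0.28, with 30 members below 0 and 10 above. The median over all clusters was -0.05, and 11243 of 17881 lay below 0. Among clusters with a mean level of at least 6 the median was 0.003. The members' median was -0.05 after centring, -0.19 without the first control vehicle array and -0.03 without the second. GINS2 was lowest at -0.61 (SE 0.24, limma adjusted p = 0.598), then GMNN at -0.44 (SE 0.20, adjusted p = 0.773) and E2F1 at -0.44 (SE 0.12, adjusted p = 0.353). PRIM1 was highest at 0.28 (SE 0.29), followed by GINS4 at 0.22 (SE 0.15) and CCNE2 at 0.16 (SE 0.32). For 39 of 40 members the 95% interval of the averaged difference lay within 2-fold in either direction, and GINS2, at -1.16 to -0.07, was the exception. Within a shRNA this held for 27 members on the arrays labelled BTG1 shRNA and 28 on the control arrays.

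By role, the 11 origin recognition and licensing genes had a median prednisolone difference of -0.27 with BTG1 shRNA and -0.09 with control shRNA. CDC6, which loads the helicase together with CDT1, read 8.58 and 9.35 with BTG1 shRNA and prednisolone and 9.11 and 9.53 with BTG1 shRNA and vehicle. It read 8.49 and 8.51 with control shRNA and prednisolone, against 8.57 and 9.31 with control shRNA and vehicle. The groups overlapped with BTG1 shRNA. With control shRNA they did not overlap, but the vehicle arrays lay 0.74 apart. CDT1 read 9.27 and 8.94 with BTG1 shRNA and prednisolone and 8.87 and 8.98 with BTG1 shRNA and vehicle. It read 9.01 and 8.49 with control shRNA and prednisolone, against 9.04 and 8.84 with control shRNA and vehicle. Its groups overlapped under either shRNA. GMNN, the inhibitor of CDT1, read 7.37 and 8.07 with BTG1 shRNA and prednisolone and 8.21 and 8.25 with BTG1 shRNA and vehicle. It read 6.93 and 7.24 with control shRNA and prednisolone, against 7.19 and 7.70 with control shRNA and vehicle. GMNN differed between prednisolone and vehicle by -0.51 (SE 0.29) with BTG1 shRNA and -0.36 (SE 0.29) with control shRNA, within the spread of the arrays.

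MCM2 and MCM7, 2 of the helicase subunits, had the narrowest spans over the 8 arrays of all 40 members. MCM2 read 9.85 and 9.86 with BTG1 shRNA and prednisolone and 10.15 and 10.07 with BTG1 shRNA and vehicle. It read 9.85 and 9.96 with control shRNA and prednisolone, against 10.05 and 9.93 with control shRNA and vehicle. Its span over the 8 arrays was 0.30. MCM7 stayed between 10.70 and 11.01, and MCM5 between 9.89 and 10.38. MCM6 had the widest span of the 6 subunits, 1.17, and read 9.46 and 9.98 with BTG1 shRNA and prednisolone and 10.08 and 9.98 with BTG1 shRNA and vehicle. It read 9.18 and 9.72 with control shRNA and prednisolone, against 8.91 and 9.38 with control shRNA and vehicle.

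Among the helicase activators, the 7 genes had median prednisolone differences of -0.34 with BTG1 shRNA and -0.02 with control shRNA. GINS2, a subunit of the GINS complex that joins CDC45 and the MCM ring, read 7.92 and 8.60 with BTG1 shRNA and prednisolone and 8.43 and 9.12 with BTG1 shRNA and vehicle. It read 8.17 and 7.77 with control shRNA and prednisolone, against 8.47 and 8.90 with control shRNA and vehicle. CDC7, the kinase that phosphorylates the MCM ring, had the widest span of the 40 members, 1.93. It read 6.04 and 7.23 with BTG1 shRNA and prednisolone and 7.54 and 7.16 with BTG1 shRNA and vehicle, and 6.85 and 7.97 with control shRNA and prednisolone, against 6.21 and 7.21 with control shRNA and vehicle. Its differences of -0.71 and 0.70 (SE 0.53 each) were smaller than the gap between the arrays of 3 of the 4 groups, which was 1.19 with BTG1 shRNA and prednisolone, 1.11 with control shRNA and prednisolone and 1.00 with control shRNA and vehicle.

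The polymerases and primase had medians of -0.12 with BTG1 shRNA and 0.20 with control shRNA. PRIM1, the catalytic primase subunit, read 8.81 and 9.55 with BTG1 shRNA and prednisolone and 8.89 and 9.63 with BTG1 shRNA and vehicle. It read 9.24 and 9.32 with control shRNA and prednisolone, against 8.13 and 9.13 with control shRNA and vehicle. The first control vehicle array was the low value behind the control difference of 0.65 (SE 0.41, adjusted p = 0.472). POLD1, the catalytic subunit of polymerase delta, read 8.36 and 7.98 with BTG1 shRNA and prednisolone and 7.96 and 8.07 with BTG1 shRNA and vehicle. It read 8.09 and 7.66 with control shRNA and prednisolone, against 8.20 and 8.16 with control shRNA and vehicle.

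The clamp and its loader had medians of -0.43 and -0.04. PCNA, the sliding clamp, read 9.54 and 9.61 with BTG1 shRNA and prednisolone and 9.53 and 9.70 with BTG1 shRNA and vehicle. It read 9.16 and 9.41 with control shRNA and prednisolone, against 9.52 and 9.47 with control shRNA and vehicle. RFC4, a clamp loader subunit, read 8.83 and 9.32 with BTG1 shRNA and prednisolone and 9.60 and 9.44 with BTG1 shRNA and vehicle. It read 8.96 and 9.64 with control shRNA and prednisolone, against 8.49 and 8.90 with control shRNA and vehicle. Neither PCNA nor RFC4 passed in any of the 6 contrasts fitted on all arrays without a replicate block.

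The 4 genes of single-strand binding and Okazaki fragment maturation had medians of -0.09 with BTG1 shRNA and -0.10 with control shRNA. FEN1, the nuclease that trims Okazaki fragments, read 9.01 and 8.65 with BTG1 shRNA and prednisolone and 8.73 and 9.14 with BTG1 shRNA and vehicle. It read 7.96 and 8.09 with control shRNA and prednisolone, against 8.59 and 8.75 with control shRNA and vehicle. The control prednisolone arrays were the lowest of the 8, as for E2F1. The prednisolone difference was -0.64 (SE 0.22, interval -1.15 to -0.14, limma adjusted p = 0.250) with control shRNA and -0.10 (SE 0.22) with BTG1 shRNA. The difference of these effects was 0.54 (SE 0.31, limma adjusted p = 0.546). The 3 genes of chromatin assembly and methylation upkeep (CHAF1A, CHAF1B and UHRF1) had medians of 0.02 and -0.11, and none of them had groups without overlap between prednisolone and vehicle under either shRNA.

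**Figure D3:**
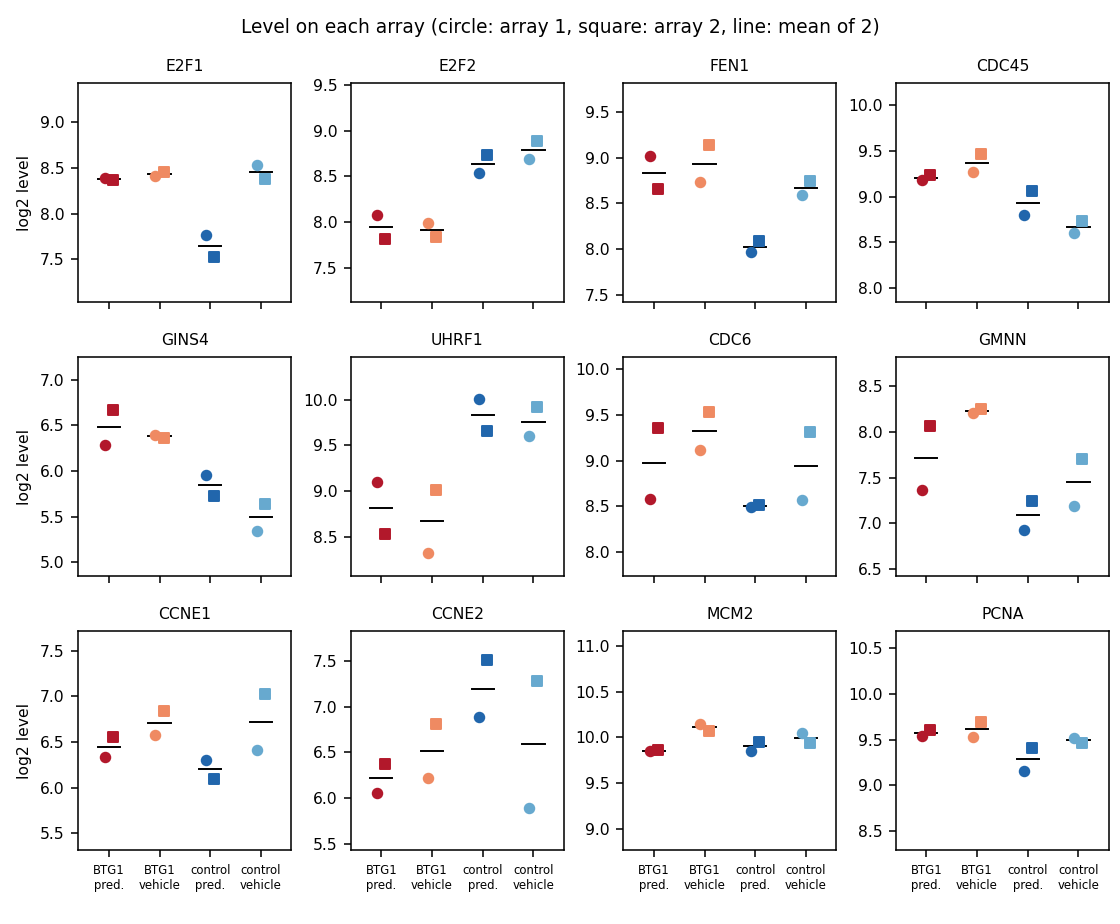
Log2 level of 12 replication genes on each array, with circles for array 1, squares for array 2 and lines for the mean of the 2; every panel spans the same range of levels around the gene's own mean. E2F1 and FEN1 are lowest on the control prednisolone arrays, E2F2 and UHRF1 are lower with BTG1 shRNA under either treatment, and CCNE2 and CDC6 differ within a group as much as between groups.

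The test of the difference of the prednisolone effects, with BTG1 shRNA minus with control shRNA, passed for 0 of 40 members (limma, adjusted over all clusters), where 0.134% of all clusters passed. Without adjustment, 2 members, E2F1 and RFC4, had a p below 0.05, against 1664 clusters. CDC7 at -1.41 (SE 0.75) and RFC4 at -1.05 (SE 0.41) were over 2-fold, 2 of 40, against 9.51% of all clusters. CCNE2 followed at -0.91 (SE 0.65), and at the upper end stood E2F1, FEN1 and POLD1 at 0.76, 0.54 and 0.47. The median over the members was -0.16 without further scaling, 0.05 after quantile normalization and -0.33 after centring, so its direction depends on scaling. The median over all clusters was 0.20, 0.06 and 0.03 under those settings. Over clusters with a mean level of at least 6, the separate prednisolone medians were -0.07 with BTG1 shRNA and 0.06 with control shRNA. Without the first control vehicle array the members' median was 0.02, and without the second it was -0.35.

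Between the shRNA labels a few members differed. Under vehicle, GINS4 and CDC45 were higher with BTG1 shRNA, 2 of 40 members, where 8.46% of all clusters were called higher. E2F2 was lower, 1 of 40, where 6.21% of all clusters were called lower. CDC45 read 9.27 and 9.47 with BTG1 shRNA, against 8.60 and 8.74 with control shRNA, and was higher by 0.70 (SE 0.18, limma adjusted p = 0.0401). GINS4, a further GINS subunit, read 6.39 and 6.36 with BTG1 shRNA, against 5.34 and 5.64 with control shRNA, and was higher by 0.89 (SE 0.21, limma adjusted p = 0.0273). E2F2, with the levels given above, was lower by -0.87 (SE 0.19, limma adjusted p = 0.0199). The groups did not overlap for any of these 3 genes.

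These calls were lost without some single arrays, which leaves fewer samples to the fit, and under some settings. That of CDC45 was lost without any 1 array other than the second control vehicle array (adjusted p = 0.063 to 0.281), and after centring (0.0675), with the filter on low values (0.0635) and with a trended, robust estimate of the spread (0.0673). That of GINS4 was lost without the first control vehicle array (adjusted p = 0.0958) or the first or second BTG1 shRNA vehicle array (0.148 and 0.151), and after quantile normalization (0.0515), centring (0.0537) or the trended, robust estimate (0.0574). That of E2F2 was lost only without the first or second BTG1 shRNA vehicle array (0.0871 and 0.165). Directions did not change in any of these settings. With any single array left out, the differences were 0.61 to 0.80 for CDC45, 0.74 to 1.03 for GINS4 and -0.97 to -0.78 for E2F2. Without the second control vehicle array 8 members were called instead of 3, with GMNN, MCM6, MCM10, RFC3 and RFC5 added, but 33.3% of all clusters were called there, a larger share than that of the members.

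Other members under vehicle stood apart without passing. UHRF1, which guides DNMT1 to newly replicated DNA, read 8.32 and 9.01 with BTG1 shRNA, against 9.60 and 9.92 with control shRNA. At -1.09 (SE 0.30, limma adjusted p = 0.0519) it was the only member over 2-fold, 1 of 40, against 14.2% of all clusters. Among the settings without a replicate block, it passed after quantile normalization (-1.27, adjusted p = 0.0455), with the filter on low values (adjusted p = 0.0397) and with the trended, robust estimate (adjusted p = 0.0308). Without a replicate block, MCM6 was at 0.89 (SE 0.28, adjusted p = 0.0791), RFC4 at 0.82 (SE 0.29, adjusted p = 0.112) and POLE, the catalytic subunit of polymerase epsilon, at -0.28 (SE 0.21, adjusted p = 0.364). Wholly above the control vehicle arrays were 9 members, against 24.5% of all clusters, and wholly below were 5, against 34.3%. The median over the members was 0.14 without further scaling and 0.19 after centring but -0.03 after quantile normalization. That over all clusters was -0.15, -0.10 and -0.04. Over the 7243 clusters with a mean level of at least 6, which include all 40 members, it was 0.21, above that of the members. Leaving out the first control vehicle array gave a members' median of 0.02, leaving out the other gave 0.40, and it was 0.28 and 0.06 when the first or second BTG1 shRNA vehicle array was omitted.

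Under prednisolone, FEN1 and E2F1 were higher with BTG1 shRNA, 2 of 40 members, where 10.0% of all clusters were called higher, and E2F2 was lower, 1 of 40, where 7.51% were called lower. FEN1 was higher by 0.81 (SE 0.22, limma adjusted p = 0.0409), E2F1 was higher by 0.74 (SE 0.17, limma adjusted p = 0.0245), and E2F2 was lower by -0.69 (SE 0.19, limma adjusted p = 0.0449), none with overlapping groups. This comparison and that of prednisolone with vehicle in control cells share the control prednisolone arrays, on which E2F1 and FEN1 read low. UHRF1 read 9.09 and 8.53, against 10.00 and 9.65 on the control prednisolone arrays, and at -1.01 (SE 0.30, adjusted p = 0.0597) was again the only member over 2-fold, 1 of 40, against 15.8% of all clusters. It passed with the filter on low values (adjusted p = 0.0426) and the trended, robust estimate (adjusted p = 0.0385). CCNE2 was at -0.98 (SE 0.46, adjusted p = 0.224), CDC7 at -0.78 (SE 0.53, adjusted p = 0.465) and GINS4 at 0.64 (SE 0.21, adjusted p = 0.082).

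The calls under prednisolone were lost without single arrays too, which again leaves fewer samples to the fit. All 3 were lost without the first or second control prednisolone array and without the first BTG1 shRNA prednisolone array, with adjusted p of 0.0555 to 0.188 for E2F1, 0.141 to 0.249 for FEN1 and 0.0917 to 0.264 for E2F2. Without the second BTG1 shRNA prednisolone array, E2F1 (0.11), FEN1 (0.0659) and E2F2 (0.239) were lost as well, and RFC2 was called lower (-1.18, adjusted p = 0.0285). Without either BTG1 shRNA vehicle array, which enters only the estimate of the spread here, the adjusted p was 0.0626 for E2F1, 0.0578 for FEN1 and 0.0908 for E2F2. The trended, robust estimate also ended all 3 (0.0579 for E2F1, 0.0526 for FEN1 and 0.0835 for E2F2), centring ended FEN1 (0.118), and the filter on low values ended E2F2 (0.061). With any single array left out, the differences were 0.61 to 0.86 for E2F1, 0.63 to 0.99 for FEN1 and -0.83 to -0.56 for E2F2. Wholly above the control prednisolone arrays were 12 members, against 28.4% of all clusters, and wholly below were 8, against 21.5%. The median over the members was -0.01, with 20 above 0 and 20 below, and was -0.14 after centring. Its sign turned with single arrays, to 0.11 without the first BTG1 shRNA prednisolone array and 0.08 without the second control prednisolone array, and it was -0.06 without the second BTG1 shRNA prednisolone array.

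**Figure D4:**
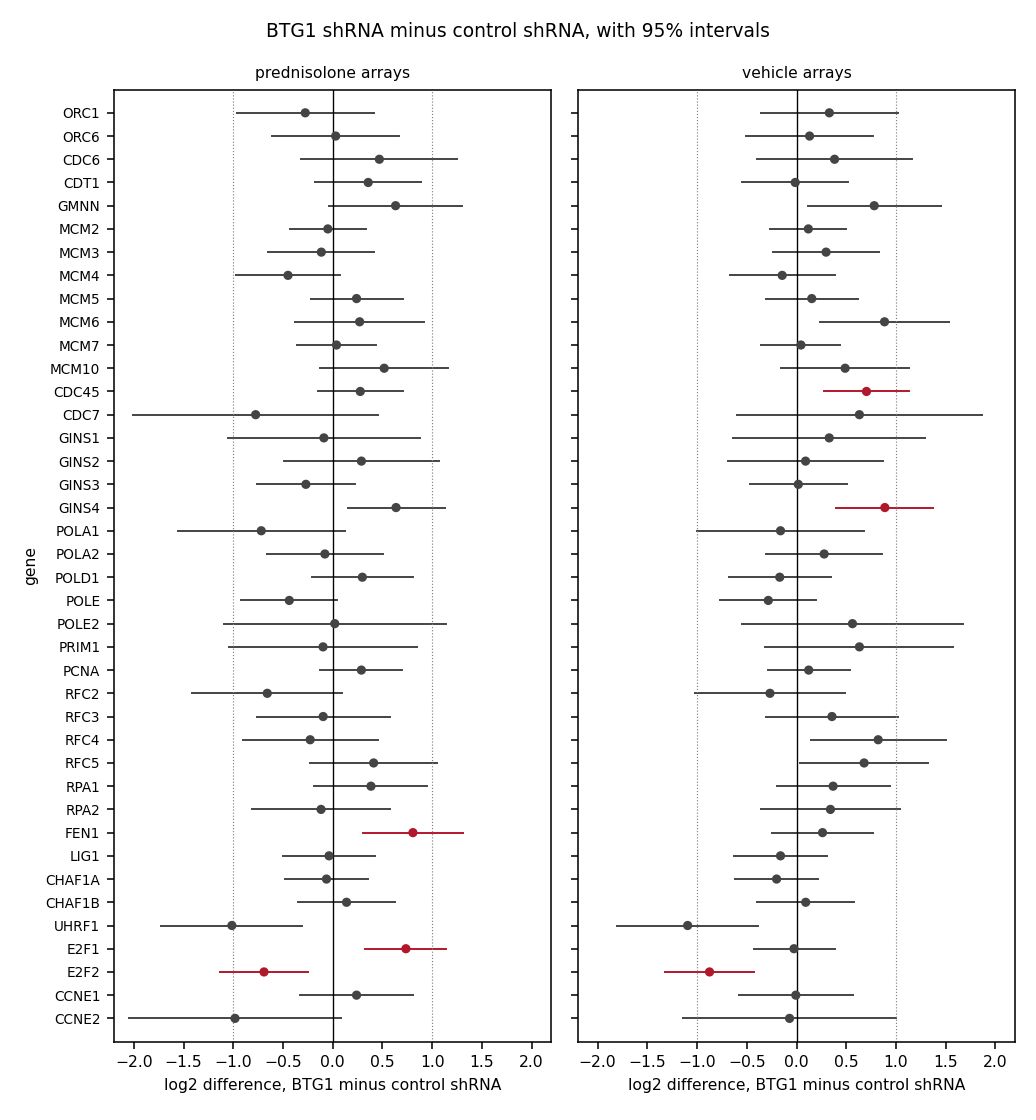
Difference between BTG1 shRNA and control shRNA in the log2 level of each replication gene, with its 95% interval from the limma fit, on the prednisolone arrays (left) and the vehicle arrays (right); red marks genes with adjusted p below 0.05 and dotted lines a 2-fold difference. E2F2 is red and left of 0 in both panels, FEN1 and E2F1 are red under prednisolone and CDC45 and GINS4 under vehicle.

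Of 38 further replication genes measured (origin recognition, fork protection, accessory polymerase and primase subunits, histone chaperones), 0 passed for prednisolone under either shRNA, and without adjustment 0 had a p below 0.05 with BTG1 shRNA and 5 with control shRNA, against 186 and 2526 of all 17881 clusters. Between the shRNAs under vehicle 3 were higher and 1 lower, where 8.46% of all clusters were higher and 6.21% lower: PRIM2, the large primase subunit (1.82, SE 0.39, adjusted p = 0.018), ASF1A, a histone chaperone (2.33, SE 0.55, adjusted p = 0.0286), POLD2, a polymerase delta subunit (1.01, SE 0.27, adjusted p = 0.0442), and POLE4, a polymerase epsilon subunit (-0.98, SE 0.23, adjusted p = 0.0248). Under prednisolone POLD2 (1.44, SE 0.27, adjusted p = 0.00842) and RNASEH2C, a ribonuclease H2 subunit (1.35, SE 0.19, adjusted p = 0.00208), were higher and POLE4 lower (-1.26, SE 0.23, adjusted p = 0.00688), where 10.0% of all clusters were higher and 7.51% lower. The cluster of RNASEH2C also carries KAT5, so its call cannot be assigned to either gene alone. Of 15 E2F and RB regulators, 0 passed for prednisolone under either shRNA, where 0% of all clusters passed with BTG1 shRNA and 1.52% with control shRNA. Without adjustment, 0 of these regulators had a p below 0.05 with BTG1 shRNA and 3 with control shRNA, against 186 and 2526 of all 17881 clusters. With control shRNA 2 of them were higher by over 2-fold under prednisolone, against 691 of all 17881 clusters. Between the shRNAs 1 was higher under vehicle and 2 under prednisolone, where 8.46% and 10.0% of all clusters were called higher, and 0 were lower. TFDP2, a dimer partner of E2F proteins, was higher with BTG1 shRNA under both treatments, by 3.17 with vehicle (SE 0.29, adjusted p = 0.000294) and by 1.85 with prednisolone (SE 0.29, adjusted p = 0.00361). CDC25A, the phosphatase that activates CDK2, was higher by 1.12 (SE 0.26, adjusted p = 0.0228) under prednisolone.

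Arrays of the same group differed for these genes, mostly with the second array higher. The second array read higher than the first for 31 of 40 members with BTG1 shRNA and prednisolone, 29 with BTG1 shRNA and vehicle, 22 with control shRNA and prednisolone and 34 with control shRNA and vehicle. Over all clusters the second array was higher for 37.3%, 41.0%, 35.3% and 38.8% in the same groups. The members were brighter, with a median level of 8.33 to 8.82 on an array, against 5.14 to 5.45 over all clusters. In the same order, second arrays had the wider interquartile range: 3.67 against 3.39, 3.80 against 3.57, 3.67 against 3.45 and 3.55 against 2.95. The share among clusters of like level was not computed. The members' median gap was 0.24, 0.24, 0.05 and 0.38, and that over all clusters was -0.10, -0.05, -0.09 and -0.17. The gaps are of the same size as most prednisolone differences of the members, and their part in those differences was not tested. The first control vehicle array also had the narrowest spread of levels, its interquartile range being 2.95, where the remaining 7 arrays had 3.39 to 3.80.

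**Figure D5:**
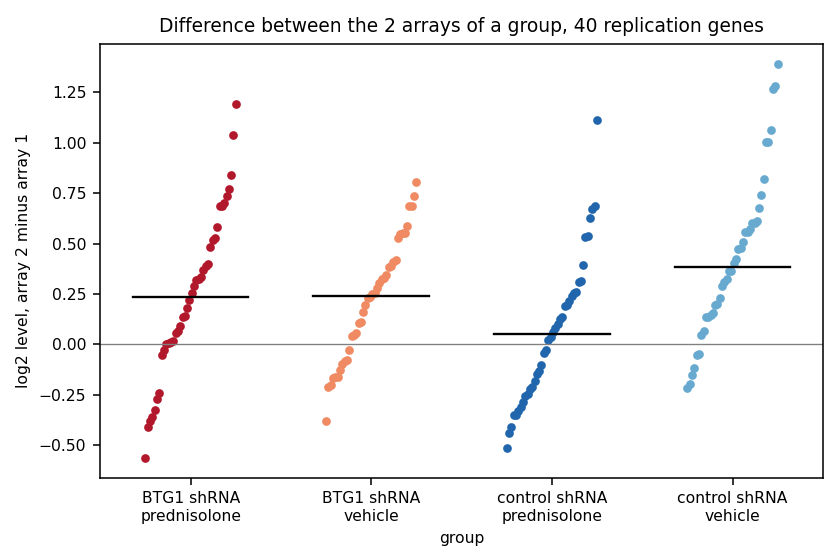
Level on array 2 minus level on array 1 of the same group, in log2 units, for each of the 40 replication genes (points, sorted within a group), with the group's median as a line. More points lie above 0 than below in every group, from 22 of 40 with control shRNA and prednisolone to 34 of 40 with control shRNA and vehicle.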

How the data were processed

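Expression was measured on 8 arrays, 2 in each of 4 groups given by the sample titles. Core meta-probe sets on hg18 were summarised to clusters, per the labels; RMA and Partek appear in the submitters' processing notes, without settings. The authors deposited log2 expression levels, but nearly all values had lost the decimal point: only 153 of 143048 still had one (2.47 to 12.25). It was restored behind digit 1, or behind digit 2 for the 2831 values that begin with 1. Correlations between arrays were 0.446 to 0.587 as deposited and 0.872 to 0.995 after this. The unit thus differed from plain log2, and the planned tests were kept on the restored values. Columns left out numbered 0.

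All 17881 clusters were fitted with limma 3.58.1 (lmFit, eBayes, 4 group means, R 4.3.3) without a filter or further normalization, with 6 contrasts and Benjamini-Hochberg adjustment over all clusters. Intervals use 4 residual and 3.51 prior degrees of freedom. Named members are those called in any contrast, the 3 highest and lowest of each contrast, and 9 with fixed roles. Symbols came from the platform annotation. The fit was tested on simulated data. Members and lists were chosen with earlier results of these data known. Alternatives were quantile normalization, median centring, a mean filter of 6, clusters with 1 symbol, the lowest-mean row, trended robust eBayes, a replicate block, a 2-fold rule and leaving out each array.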

Additional observations from a re-analysis of the deposited data

Results flagged for a closer look

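In CDC45 and RFC4 every prednisolone array lay below the vehicle arrays with BTG1 shRNA and above them with control shRNA. The difference of the prednisolone effects was -0.43 for CDC45 (SE 0.26, limma adjusted p = 0.546) and -1.05 for RFC4 (SE 0.41, limma adjusted p = 0.527), so neither passed. Such opposite, non-overlapping shifts in this direction or the reverse occurred in 1257 of 17881 clusters (7.03%), against 2 of the 40 replication genes.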

How the results depend on the processing

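The count of members called stayed at 0 for prednisolone with BTG1 shRNA and for the average under every setting run. With all 8 arrays and a test, 0% of all clusters were called in the first of these contrasts and 0.302% to 0.705% in the second. A count of 0 members lies near those shares. The count was also 0 for the difference of effects under every setting with a test, and the 2-fold rule gave 2 there. With control shRNA the count was 0 except for 1 with the replicate block (E2F1, limma adjusted p = 0.0355), where 4.22% of all clusters were called. For the shRNAs under vehicle, 3 members were called (14.7% of all clusters), against 1 after centring (14.1%), 1 by the 2-fold rule, 8 with the replicate block (25.5%) and 0 to 8 when an array was left out (7.21% to 33.3%). The block added GMNN (adjusted p = 0.0263), MCM6 (0.0194), RFC4 (0.0347), RFC5 (0.0413) and UHRF1 (0.0393). Under prednisolone, 3 were called (17.5% of all clusters), against 2 after centring (15.9%), 1 by the 2-fold rule, 1 with the trended, robust estimate (17.2%), 4 with the replicate block (24.2%) and 0 to 3 when an array was left out (9.76% to 21.8%). The block added CCNE2 (-0.98, adjusted p = 0.0312). The replicate numbers were not treated as pairing the arrays, because the labels name no shared batch. Deviations of same-numbered arrays nonetheless correlated positively in all 6 pairs of groups, at 0.01 to 0.59. What same-numbered arrays share was not tested. The 6 single-gene calls kept their direction in all alternatives. A lone array left in a group was assumed to vary like the others. The lowest-mean row and the 1-symbol rule could not change a call, since every called gene has 1 row and, except FEN1, 1 symbol. FEN1, whose row has 2 symbols, has no value under the 1-symbol rule. Leaving out an array leaves fewer samples to the fit; the cause of the other changes was not tested. Signal over background cannot be read from these values.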
